A study of Mus musculus with 4 samples.

Results

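Of the 32286 features counted in single cells of the mouse distal jejunum, 10 genes of lipid absorption and chylomicron assembly are described here: Fabp1, Fabp2, Cd36, Scarb1, Mogat2, Mttp, Apob, Apoa1, Apoa4 and Apoc3. They were chosen by name, from what their products do, and each matched 1 feature by its symbol. The study asked how loss of the transcription factors Foxc1 and Foxc2 in endothelial cells changes repair of the intestine after ischemia/reperfusion (I/R), in which the gut is deprived of blood for a time and is injured when the blood returns. All 4 mice had I/R surgery and were sampled 18.5 h later, each as 1 library, so that no uninjured tissue enters any comparison. The 2 Control mice carried the floxed alleles alone (Foxc1fl/fl;Foxc2fl/fl), and the 2 EC-Foxc-DKO mice carried the same floxed alleles with Cdh5-CreERT2, a Cre recombinase that becomes active on tamoxifen and is driven by an endothelial promoter. By the study's methods the mice were adult males, and tamoxifen was given in corn oil by gavage. Epithelial cells, where most of these genes are expressed, are not cells in which Cdh5-CreERT2 is driven.

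Dietary triglyceride is split in the gut lumen, and enterocytes, the absorptive cells of the epithelium, take up the fatty acids and monoacylglycerol, join them again into triglyceride and pack this onto apolipoprotein B as chylomicrons, which leave through the lymphatic vessels of the villus. Enterocytes are born in the crypt and move up the villus to its tip, where they are shed, so that a cell's place on the villus is also its age. In other tissues, capillary endothelial cells pass fatty acids from the blood to the tissue, and CD36 is the best known of the proteins that take part.

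By their roles the 10 genes fall into 4 groups. Cd36 encodes a scavenger receptor that binds long-chain fatty acids, and Scarb1 encodes SR-B1, the receptor for high-density lipoprotein. Fabp1 and Fabp2 encode the liver-type and the intestinal fatty acid-binding protein, which carry fatty acids inside the cell. Mogat2 encodes the enzyme that joins a fatty acid to monoacylglycerol. Mttp encodes the protein that loads lipid onto apolipoprotein B, Apob encodes that apolipoprotein, and Apoa1, Apoa4 and Apoc3 encode smaller apolipoproteins that ride on the particles.

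In GRCm38 (GENCODE vM21), Apoa1 (ENSMUSG00000032083, chr9:46228580-46230466, plus strand), Apoc3 (ENSMUSG00000032081, chr9:46232933-46235636, minus strand) and Apoa4 (ENSMUSG00000032080, chr9:46240696-46243459, plus strand) are neighbours within 14.9 kb. Fabp2 (ENSMUSG00000023057, chr3:122895072-122899506, plus strand) and Mttp (ENSMUSG00000028158, chr3:138089854-138144968, minus strand) share a chromosome but lie far apart, and so do Cd36 (ENSMUSG00000002944, chr5:17781690-17888801, minus strand) and Scarb1 (ENSMUSG00000037936, chr5:125277087-125341094, minus strand). Fabp1 (ENSMUSG00000054422) lies at chr6:71199827-71205023 on the plus strand, Apob (ENSMUSG00000020609) at chr12:7977648-8016835 on the plus strand and Mogat2 (ENSMUSG00000052396) at chr7:99219084-99238619 on the minus strand.

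The RefSeq table of promoters (GRCm38.p6) held 7 of the 10 genes, without Apoc3, Scarb1 and Mogat2. The 250 bases before each start were searched on both strands for the letters CAAAGNNCA, a short form of the site that HNF4 factors bind, since HNF4 factors are known regulators of enterocyte lipid genes. The letters occurred in 3 of the 7 genes, Apoa4, Apob and Fabp2, and in 5.49% of the 32851 promoters of the table. TATAAA, the TATA box, occurred in Apob and Fabp1 and in 12.4% of all promoters. GTTAAT, the core of an HNF1 site, occurred in Fabp1 and in 6.43% of all promoters, and AGATAA, bound by factors of the GATA family, occurred in none of the 7 genes and in 9.99% of all promoters. No 2 of these letter strings overlapped in the 7 genes. The promoters of the genes with these letters are shown because, of the genes with CAAAGNNCA, Apoa4 and Apob were higher at the villus tip in all 4 mice, Fabp2 had a direction that depended on the filter for mitochondrial UMIs, and Fabp1, which lacks the letters in this window, was lower over all enterocytes. Apoa1 and Cd36 also lack them there and were higher at the tip as well. Mttp lacks them too, and its direction depended on the same filter. For Apoa4, Cd36 and Mttp most of the 250 searched bases lie inside the GENCODE gene. In Apoa4 the 102 bases shown lie before it and hold the matched letters. The bases before the GENCODE start of Cd36 and Mttp were thus mostly not searched. The promoters shown run 5′ to 3′ on the plus strand and stop before the first base of the GENCODE gene. Matched letters are in capitals (on the reverse strand in Apob and Fabp2 for the HNF4-type letters). The coordinates are, in order, chr9:46240594-46240695, chr12:7977427-7977647, chr3:122894822-122895071 and chr6:71199629-71199826.
Apoa4: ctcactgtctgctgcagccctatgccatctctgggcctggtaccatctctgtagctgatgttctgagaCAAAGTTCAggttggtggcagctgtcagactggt
Apob: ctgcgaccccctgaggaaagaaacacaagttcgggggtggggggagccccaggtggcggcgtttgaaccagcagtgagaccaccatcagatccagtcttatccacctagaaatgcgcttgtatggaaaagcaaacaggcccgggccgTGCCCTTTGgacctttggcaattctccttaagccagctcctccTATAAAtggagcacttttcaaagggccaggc
Fabp2: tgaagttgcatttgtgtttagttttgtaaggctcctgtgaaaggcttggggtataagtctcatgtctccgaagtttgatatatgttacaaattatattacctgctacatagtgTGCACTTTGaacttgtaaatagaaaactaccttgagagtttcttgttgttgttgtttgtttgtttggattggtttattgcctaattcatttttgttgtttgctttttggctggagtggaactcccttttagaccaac
Fabp1: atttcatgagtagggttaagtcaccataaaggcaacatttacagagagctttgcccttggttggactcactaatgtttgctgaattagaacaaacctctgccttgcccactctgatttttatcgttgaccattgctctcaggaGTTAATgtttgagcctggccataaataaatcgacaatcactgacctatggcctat
Counted back from the RefSeq start, the HNF4-type letters lay 182 to 174 bases before it in Apoa4, 103 to 95 in Apob and 137 to 129 in Fabp2. The TATA letters of Fabp1, 30 to 25 bases before its start, fall beyond the stretch shown. A match of letters is a description and not evidence of binding.

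Each captured RNA molecule carried a unique molecular identifier (UMI), and the level of a gene is its number of UMIs per 1000000 UMIs of that cell type in that mouse (CPM). The libraries count molecules at the 3′ end, so levels are not divided by gene length. The 4 libraries held 22679 barcodes and 15557181 to 72046346 UMIs, and 5615 cells passed the study's limit of 10% mitochondrial UMIs. Control replicate 2 stood apart, with a median mitochondrial share of 54.0% over its barcodes against 14.98% to 25.8% in the other libraries, and it kept 348 cells against 1079 to 2742. In all, 51 barcode sequences occurred in more than 1 library, and 24 kept cells carried such a sequence. In blood endothelial cells (BECs), the 4 mice, in the order Control replicates 1 and 2 and EC-Foxc-DKO replicates 1 and 2, had 1, 5, 1 and 0 UMIs of Foxc1, and over all kept cells Foxc2 had 0 UMIs in every mouse and Cre had 0, 0, 3 and 3 UMIs. Loss of Foxc1 and Foxc2 was therefore not measurable at this depth. Cell types were named from markers with none of the 10 genes among them, and a name stands for cells that resemble that type. Many of these markers come from the study's own lists for its clusters, made from these same libraries. Those lists also hold Apoa4, Apob, Apoa1 and Apoc3 for top, Fabp2 for middle and Fabp1 for bottom enterocytes, and Cd36 and Fabp4 for BECs. The types in which these genes are high were thus not found independently of the names. The clusters were made without the 10 genes and without the wider list of lipid genes used below.

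The 10 genes took 10.5%, 7.30%, 11.03% and 9.48% of all UMIs in enterocytes of the 4 mice, whose values are always given in that same order. In Top enterocytes the share was 15.7% and 17.1% in the replicates 1 of both genotypes, and in Bottom enterocytes of the 4 mice it was 6.92%, 5.22%, 6.23% and 9.32%. In CD8+ T cells the share was between 0.0619% and 0.286%. Of the 1615 enterocytes, 759, 54, 447 and 355 came from the 4 mice, and their place differed between mice: Top enterocytes numbered 223, 3, 99 and 2, Middle enterocytes 310, 18, 204 and 9, and Bottom enterocytes 226, 33, 144 and 344. After the mitochondrial limit of 10%, both replicates 2 thus held few cells named Top, and most of their enterocytes were named Bottom. A value over all their enterocytes is mostly a value of the Bottom cluster. The villus score described below placed fewer of their cells at the bottom: 24 of 54 and 259 of 355 lay in its bottom segment. For Control replicate 2 the cluster counts depended on the limit: at 20% it had 69 Bottom, 71 Middle and 16 and 25 Top cells. EC-Foxc-DKO replicate 2 still had 457 Bottom, 7 Middle and 7 and 22 Top cells. Cells kept at 10% held 34.5%, 9.4%, 23.2% and 49.4% of all Apoa4 UMIs of the 4 mice, and 55.8%, 39.2%, 46.8% and 74.7% of Fabp1 UMIs.

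**Figure D1:**
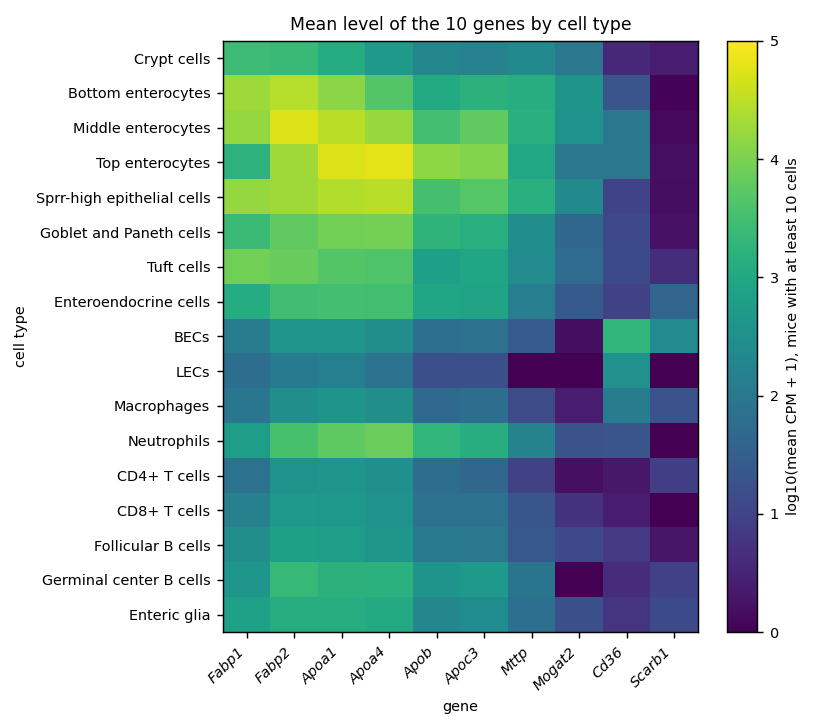
Mean level of the 10 genes (columns) in each cell type (rows), as log10 of the mean CPM plus 1 over the mice with at least 10 cells of the type. Apob, Apoa1, Apoa4 and Apoc3 are highest in Top enterocytes, Fabp2 and Mttp in Middle enterocytes, Fabp1 and Mogat2 in Bottom enterocytes, and Cd36 and Scarb1 in BECs.

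Over 21 cell types, 2 of them unnamed clusters, 8 of the 10 genes had their highest mean level in an enterocyte zone, and the zone differed between genes. Genes of the same role could peak in different zones, as Fabp1 and Fabp2 did. The apolipoprotein genes were highest in Top enterocytes. Apoa4 averaged 63750 CPM there (62875 and 64624 in 2 mice), and its next levels were 28871 CPM in Sprr-high epithelial cells (22013 to 33777) and 16550 in Middle enterocytes (13431 to 21173), with no overlap between these 3 types. Apob averaged 14030 CPM in Top enterocytes (13292 and 14768), which no other type overlapped, while Sprr-high epithelial cells (2212 to 4273) and Middle enterocytes (2556 to 3624) overlapped each other. Apoc3 averaged 11105 CPM in Top enterocytes (10679 and 11531), 6104 in Middle enterocytes (6075 to 6145) and 4769 in Sprr-high epithelial cells (4184 to 5069), again without overlap. Apoa1 averaged 53422 CPM in Top enterocytes (53021 and 53823) and 30257 in Middle enterocytes (26120 to 33325), whose range overlapped that of Sprr-high epithelial cells (22229 to 31380). Sprr-high epithelial cells are named after small proline-rich proteins, which stressed epithelium expresses, and their levels of these genes were above those of Bottom enterocytes in every mouse with at least 10 such cells.

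The binding proteins and enzymes had other peaks. Fabp2 averaged 54161 CPM in Middle enterocytes (48142 to 61690), and a shallow unnamed cluster came next, at 48856 (48046 to 50379), with an overlapping range. It averaged 27889 CPM in Bottom enterocytes (20680 to 41477), 19441 in Sprr-high epithelial cells (14196 to 22621) and 19103 in Top enterocytes (12378 and 25827), and these 3 ranges overlapped. Fabp1 averaged 18870 CPM in Bottom enterocytes (16507 to 21498), 16444 in Middle enterocytes (14218 to 18356) and 16443 in Sprr-high epithelial cells (14958 to 18311), all overlapping each other and the unnamed cluster (15108 to 17104), and it was far lower in Top enterocytes, at 1717 and 1637 CPM. Mogat2 followed Fabp1, with 384 CPM in Bottom enterocytes (322 to 449), 359 in Middle enterocytes (307 to 402), 309 in the unnamed cluster (207 to 403), 245 in Sprr-high epithelial cells (222 to 281) and 96.1 in Top enterocytes (89.1 and 103). Mttp had 1516 CPM in Middle enterocytes (1291 to 1645), 1488 in Sprr-high epithelial cells (1407 to 1598), 1310 in Bottom enterocytes (987 to 1761) and 971 in Top enterocytes (933 and 1010). In Crypt cells, the dividing cells from which enterocytes arise, Fabp1 had 4808, 527, 2768 and 2480 CPM and Apoa4 had 1078, 48.6, 528 and 277 CPM. Both genes were lower in Crypt cells than in Bottom enterocytes of the same mouse in all 4 mice.

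To place single enterocytes along the villus, they were ranked by a score. It took tip genes, such as Ada and Nt5e, minus bottom genes, such as Reg3b and Reg3g. None of these is among the 10 genes or the wider list. Several, with the named ones among them, are markers the study found for its top and bottom enterocyte clusters in these same libraries. The same marker lists hold Apoa4, Apob, Apoa1 and Apoc3 for the top and Fabp1 for the bottom. The score was thus not chosen independently of the direction of these genes. The ranking was cut into 3 segments of equal size, and UMIs of the tip and of the bottom segment were summed per mouse and compared with edgeR's quasi-likelihood test, with the mouse as a block and Benjamini-Hochberg adjustment over all genes. With segments set over all enterocytes, only Control replicate 1 (152 bottom and 352 tip cells) and EC-Foxc-DKO replicate 1 (104 and 172) had at least 10 cells in both segments, so that this fit rests on 2 mice and 1 residual degree of freedom. It called 71.3% of the 9502 genes tested, and all 9 of the 10 genes that could be tested, 7 higher at the tip and 2 lower. As most genes were called, the call itself sets these genes little apart from the rest. Their median difference was 2.53 on the log2 scale, and that of all genes tested was -0.040. Of all genes 3302 were called higher and 3476 lower, and in a median of signed differences these offset each other. The size of the differences regardless of sign was not compared with that of all genes. With segments set within each mouse, an analysis chosen after the data were seen, all 4 mice entered, 40.8% of 8329 genes were called, and 5 of the 9 genes were, all of them higher at the tip, with a median of 2.12 over the 9.

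The apolipoprotein genes had the largest differences along the villus. Apoa4 went from 2861 CPM in the bottom segment to 47161 in the tip segment of Control replicate 1 and from 2528 to 52115 in EC-Foxc-DKO replicate 1, a log2 difference of 4.46 (SE 0.126, adjusted p = 5.56e-10 by edgeR's quasi-likelihood test). In the other two mice it went from 2157 to 38969 and from 4306 to 48266 CPM, although their tip segments held 7 cells each. Within each mouse the ratio of tip to bottom was 16.1, 12.6, 16.4 and 6.75, and the log2 difference was 3.88 (SE 0.391, edgeR adjusted p = 0.00179). All 4 mice thus had the same direction, with the smallest step in EC-Foxc-DKO replicate 2.

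Apob, the structural protein of the particle, had 968 and 838 CPM in the bottom segment and 10683 and 9950 CPM in the tip segment of the replicates 1, a log2 difference of 3.77 (SE 0.107, edgeR adjusted p = 5.56e-10). Within each mouse the ratio was 11.99, 5.51, 10.96 and 2.86, and the log2 difference was 3.03 (SE 0.465, edgeR adjusted p = 0.00524). Apoc3, an inhibitor of triglyceride clearance, had 1177 and 1334 CPM at the bottom and 9872 and 10421 at the tip, a log2 difference of 3.27 (SE 0.0997, edgeR adjusted p = 8.15e-10), and 3.00 within each mouse (SE 0.28, edgeR adjusted p = 0.00151). Apoa1, the main protein of high-density lipoprotein, started from a higher level, 10431 and 9730 CPM, and reached 49011 and 48344 CPM, a log2 difference of 2.53 (SE 0.0989, edgeR adjusted p = 4.28e-09), and 2.12 within each mouse (SE 0.32, edgeR adjusted p = 0.00494). The bottom and tip values of these 3 genes did not overlap between mice in either division.

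Cd36 was the only uptake gene with enough UMIs in enterocytes to be tested. It had 24.7 and 21.3 CPM in the bottom segment and 111 and 121 CPM in the tip segment of the replicates 1, a log2 difference of 2.56 (SE 0.137, edgeR adjusted p = 3.93e-08), and 2.28 within each mouse (SE 0.273, edgeR adjusted p = 0.00248). Control replicate 2 had 20.4 and 80.4 CPM and EC-Foxc-DKO replicate 2 had 5.55 and 11.1 CPM, so that the tip of the latter lay below the bottom of every other mouse. Scarb1 had 5, 0, 6 and 0 UMIs over all enterocytes of the 4 mice and could not be tested.

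Fabp1 ran against the apolipoprotein genes. It had 20614 and 17558 CPM in the bottom segment and 6008 and 5235 CPM in the tip segment of the replicates 1, and it fell by 1.51 on the log2 scale (SE 0.0944, edgeR adjusted p = 1.27e-07). Within each mouse the bottom segment had 8.68 and 4.67 times the level of the tip segment in the replicates 1, but Control replicate 2 had 12376 CPM at the bottom and 13571 at the tip, and EC-Foxc-DKO replicate 2 had 15409 and 22878. Over the 4 mice the log2 difference was -0.89 (SE 0.653, edgeR adjusted p = 0.295), with a value of -1.54 once EC-Foxc-DKO replicate 2 was left out (edgeR adjusted p = 0.0198). By the score over all enterocytes, Control replicate 2 went from 13679 to 7313 CPM and EC-Foxc-DKO replicate 2 from 18178 to 18763 CPM, with 7 tip cells each, against 18 and 118 tip cells when the segments were set within the mouse. Fabp1 was thus lower at the tip in 3 of 4 mice by the score over all enterocytes and in 2 of 4 within each mouse.

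Fabp2 rose by 1.05 on the log2 scale over all enterocytes (SE 0.155, edgeR adjusted p = 0.000119), from 21516 to 29055 CPM and from 20079 to 44650 CPM in the replicates 1. Within each mouse it went from 27408 to 15109 CPM in Control replicate 1 and upward in the other 3 mice, with a log2 difference of 1.13 (SE 0.493, edgeR adjusted p = 0.102). DESeq2 gave Fabp2 an adjusted p of 0.202 over all enterocytes and of 0.0379 within each mouse. Fabp2 peaked between the ends of the villus, so that the 2 end segments describe it poorly. Mogat2 fell by 0.75 (SE 0.108, edgeR adjusted p = 9.48e-05), from 428 to 198 and from 369 to 200 CPM, and had -0.67 within each mouse (SE 0.322, edgeR adjusted p = 0.13), where it was -0.97 without EC-Foxc-DKO replicate 2 (edgeR adjusted p = 0.0195). Mttp had the smallest difference of the 9 genes, 0.49 (SE 0.102, edgeR adjusted p = 0.00135), with 1281 and 1107 CPM at the bottom and 1406 and 1406 CPM at the tip, and 0.39 within each mouse (SE 0.263, edgeR adjusted p = 0.256). With cells kept up to 20% mitochondrial UMIs, where the median of all genes was -0.483 in place of -0.040, Fabp2 had -1.23 (edgeR adjusted p = 6.05e-07) and Mttp -0.22 (edgeR adjusted p = 0.227), so the direction of both depends on that limit.

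**Figure D2:**
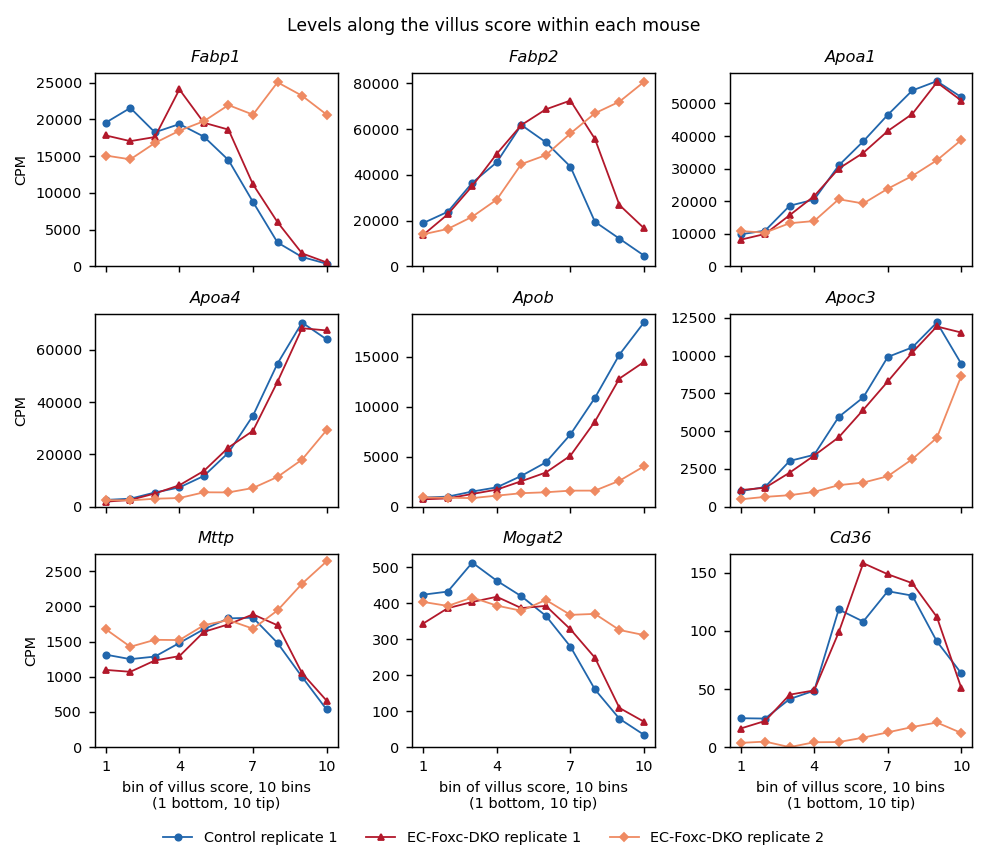
Level in CPM (vertical axes, each from 0) of 9 genes in 10 bins of the villus score, from 1 at the bottom to 10 at the tip, with bins set within each mouse; the lines are Control replicate 1 and EC-Foxc-DKO replicates 1 and 2. In both replicates 1, Apoa4, Apoa1 and Apoc3 peak in bin 9 and Apob in bin 10, Fabp2 peaks at bin 5 or 7, and Fabp1 is lowest in bin 10; in EC-Foxc-DKO replicate 2 Fabp2 climbs to the last bin.

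The order of the peaks was followed in 10 bins of equal size, set within each of the 3 mice with enough cells and numbered from the bottom. In Control replicate 1, Fabp1 was highest in bin 2, at 21563 CPM, and fell to 363 CPM in bin 10. Mogat2 peaked next, in bin 3, at 513 CPM, and had 34.3 CPM in bin 10. Fabp2 peaked in bin 5, at 61780 CPM, and had 4743 CPM in bin 10. Mttp and Cd36 peaked in bin 7, at 1839 and 134 CPM. Apoa1, Apoa4 and Apoc3 peaked in bin 9, at 56829, 70418 and 12196 CPM, and Apob rose from 919 CPM in bin 1 to its highest level, 18419 CPM, in bin 10. The genes of EC-Foxc-DKO replicate 1 peaked in a like order, Fabp1 and Mogat2 in bin 4, Cd36 in bin 6, Fabp2 and Mttp in bin 7, Apoa1, Apoa4 and Apoc3 in bin 9 and Apob in bin 10, where Fabp1 had 544 CPM and Apob 14473. In EC-Foxc-DKO replicate 2, in which bottom cells prevailed, Fabp2, Mttp and all 4 apolipoprotein genes were highest in bin 10, and Fabp1 had 20661 CPM there. Counts of UMIs differed from these shares. In Control replicate 1, bins 1 and 10, of 76 and 75 cells, held 84 and 61 UMIs of Cd36 and 4439 and 515 of Mttp. In the same bins Apoa1 had 33222 and 49936 UMIs, and Apoa4 had 8829 and 61576.

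The wider list held 48 genes of lipid handling in 8 groups, of which 38 were tested over all enterocytes. Of these, 22 were higher at the tip and 11 lower, so that 33 of 38 were called against 71.3% of all genes. Their median log2 difference was 0.49, against -0.040 for all genes. Both are medians of signed differences, in which higher and lower genes offset each other. Within each mouse 37 were tested, of which 13 were higher and 4 lower, so that 17 of 37 were called against 40.8% of all genes, a share near that of the rest. The genes named next were among those called in both analyses, with values from the first. Among 5 uptake and activation genes, the fatty acid transporter gene Slc27a4 (1.961, SE 0.101) and the acyl-CoA synthetase gene Acsl3 (4.99, SE 0.157) were higher at the tip. Among 6 cholesterol genes, Npc1l1, the cholesterol importer (1.93, SE 0.0973), Abcg5, part of the sterol exporter (0.82, SE 0.123), and Soat2, which esterifies cholesterol (1.13, SE 0.106), were higher.

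Of 6 triglyceride and droplet genes tested, Dgat2, an enzyme of the last step of triglyceride synthesis (2.1, SE 0.11), and Plin3 (1.73, SE 0.0974) were higher, whereas Plin2, which like Plin3 coats lipid droplets (-2.19, SE 0.118), was lower. Among 6 genes of chylomicron export and apolipoprotein B editing, Mia2, which acts in export from the endoplasmic reticulum (1.83, SE 0.102), and Apobec1, the enzyme that edits Apob RNA (2.1, SE 0.135), were higher. Apoc2, the activator of lipoprotein lipase, was higher too (3.01, SE 0.171). Of 7 transcription factor genes, Creb3l3 (1.97, SE 0.0961) and Hnf4a (2.25, SE 0.101) were higher and Nr1h3 and Nr1h4, the genes of the liver X receptor alpha and the bile acid receptor (-0.995, SE 0.131, and -2.04, SE 0.175), were lower. Of the vascular genes 1 was tested over all enterocytes and none within each mouse.

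Called over all enterocytes alone were Abcg8, Dgat1, Gpat3, Agpat2, Sar1b, Surf4, Mia3, Apoe and Pparg, all higher at the tip, and Acsl1, Hnf4g, Ppara, Cpt1a, Hadha, Acadm and Fabp5, all lower, by edgeR's quasi-likelihood test with Benjamini-Hochberg adjustment. Of the lower genes, Cpt1a, Hadha and Acadm encode enzymes of mitochondrial fatty acid oxidation. Fabp5 had the widest error of the list (-2.60, SE 0.741).

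Cd36 and Scarb1 had their highest level outside the epithelium, in BECs, where, as in lymphatic endothelial cells, Foxc1 and Foxc2 are targeted. The study lists Cd36 and Fabp4 among its BEC markers from these same libraries, although neither was used here to name the cluster. The cluster held 31, 29, 86 and 24 cells, all 10 of its markers had UMIs in every mouse, and their summed level was between 22466 and 24055 CPM. In BECs Cd36 had 1835, 2242, 1733 and 1946 CPM, and in enterocytes of the same mice it had 65.8, 32.0, 72.1 and 8.17 CPM. The level in BECs was 27.9, 70.1, 24.0 and 238 times that in enterocytes, higher in 4 of 4 mice, and the spread of the ratio came mostly from the enterocytes. Cd36 had a UMI in 83.9%, 93.1%, 90.7% and 91.7% of BECs (lowest bound of the exact 95% intervals 66.3%, highest 99.2%). In Follicular B cells, with medians of 2754 to 3321 UMIs per cell against 3589 to 5118 in BECs, at most 2.94% of cells had one. After each cell was thinned to 1000 UMIs the shares were 69.4%, 80.9%, 68.3% and 73.3% in BECs and at most 1.30% in Follicular B cells.

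Scarb1 had 202, 281, 207 and 357 CPM in BECs, with a UMI in 48.4%, 69.0%, 50.0% and 54.2% of cells and, after thinning, in 20.03% to 28.5%. In Follicular B cells Scarb1 had a UMI in at most 0.813% of cells of a mouse, and in CD8+ T cells it had 0 UMIs. With its 5 and 6 UMIs in enterocytes, the level in BECs was 887 and 430 times that in enterocytes of the replicates 1. In both replicates 2, where enterocytes had 0 UMIs, it was at least 123-fold and 1077-fold higher, against a floor of 3 counts per library. By mean level the next type for Scarb1 was Enteroendocrine cells, the hormone-producing cells of the epithelium, with 48.2, 41.6, 35.2 and 39.2 CPM in cells numbering 25, 5, 24 and 23. Their range overlapped that of an unnamed cluster, led by Siglech, at 75.2, 22.5 and 0 CPM in the 3 mice with at least 10 of its cells. Enterocytes of these mice had under 1 CPM of Scarb1.

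Lymphatic endothelial cells (LECs), which line the vessels that take up chylomicrons, were few, with 5, 10 and 5 cells in the first 3 mice and 0 in EC-Foxc-DKO replicate 2. Cd36 had 367, 334 and 0 CPM in them, and Scarb1 had 0 UMIs. Macrophages, which take up modified lipoproteins through CD36, had 106, 245, 59.6 and 90.1 CPM of Cd36, and their range overlapped that of Top enterocytes (90.1 and 99.7 CPM). Fabp4, the fatty acid-binding protein of capillary endothelium and adipocytes, had 5942, 8399, 6934 and 8675 CPM in BECs and 158 to 526 CPM in LECs. Gpihbp1, which holds lipoprotein lipase on the capillary wall, had 161, 584, 241 and 433 CPM in BECs. Of Fabp1, Fabp2 and Fabp4, Fabp4 thus had the highest level in BECs, with Fabp1 at 31.2 to 229 CPM and Fabp2 at 134 to 921 CPM. Other fatty acid-binding protein genes, such as Fabp5, were not compared there.

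**Figure D3:**
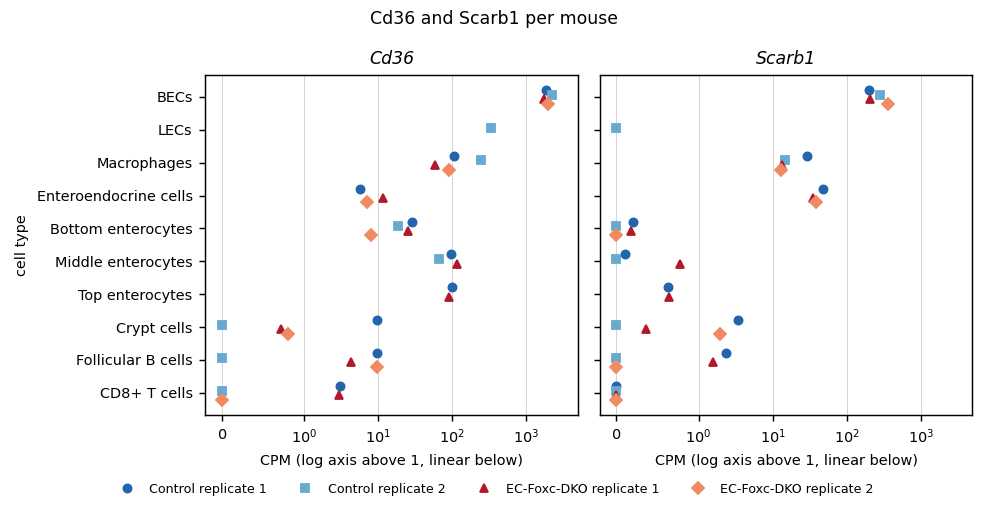
Level of Cd36 and Scarb1 in CPM (horizontal axes, logarithmic above 1 and linear below) by cell type, 1 point per mouse. The 4 BEC points lie at 1733 to 2242 CPM for Cd36 and at 202 to 357 CPM for Scarb1, above the points of enterocytes, and Enteroendocrine cells, at 35.2 to 48.2 CPM of Scarb1, lie above enterocytes as well.

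The remaining 8 genes had UMIs in cells outside the epithelium as well, at shares of the enterocyte level that differed between types and mice. Fabp1 in BECs was at 0.188% to 1.46% of its level in enterocytes of the same mouse, in CD8+ T cells at 0.223% to 1.51%, in Macrophages at 0.264% to 0.881% and in Follicular B cells at 0.380% to 2.63%. Apoa4 in BECs was at 1.20% to 3.16%, in CD8+ T cells at 1.51% to 3.76% and in Follicular B cells at 1.51% to 5.34%. For both genes the lowest and the highest share in BECs were below those of CD8+ T cells and Follicular B cells. Other types went the other way. CD4+ T cells, in the 3 mice with enough of them, had Fabp1 at 0.182% to 0.676% and Apoa4 at 0.794% to 4.19%. Macrophages had Apoa4 at 0.883% to 2.98%. The shares thus overlapped between types, and no expression in BECs is read from them. Shares were far higher in single libraries of other types. In Neutrophils of Control replicate 1 (30 cells) Apoa1 was at 39.96% and Apoa4 at 77.8% of the enterocyte level, against 3.42% and 5.05% in EC-Foxc-DKO replicate 1 (20 cells). In Germinal center B cells Apoa4 was at 35.6% in EC-Foxc-DKO replicate 2 (21 cells) and at 1.58% in EC-Foxc-DKO replicate 1 (72 cells), and in Enteric glia it ranged from 1.18% to 18.4%. The source of these UMIs was not tested. Control replicate 2, whose kept cells held the smallest share of the 10 genes (2.64%, against 5.80% to 8.81% in the other mice), also had the lowest Fabp1 in BECs, 31.2 CPM, in CD8+ T cells, 36.9 CPM, and in Follicular B cells, 63.0 CPM. In the Erythroid cells mixed with Plasma cells (14 cells) it instead had the highest Fabp1 of the 4 mice, 1276 CPM.

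Tuft cells, chemosensory cells of the epithelium, carried Fabp1 without a like level of Fabp2 in 3 of the 4 mice. The Tuft clusters held 22, 3, 28 and 13 cells, and their markers summed to 39757, 31300, 29528 and 19732 CPM. In the median Tuft cell Fabp1 had 15218, 13025, 15432 and 129 CPM, while Fabp2 had 548, 0, 633 and 151 CPM. Fabp1 exceeded Fabp2 in 17 of 22, 2 of 3, 22 of 28 and 2 of 13 cells. In Middle enterocytes Fabp1 exceeded Fabp2 in 2.26%, 0%, 0.490% and 0% of cells, in Bottom enterocytes in 36.7%, 30.3%, 32.6% and 18.0%. Summed over the Tuft cluster, Fabp2 of EC-Foxc-DKO replicate 1 had 15342 CPM, far above its median cell, since a few cells held most of its UMIs. EC-Foxc-DKO replicate 2 differed from the other mice, with a summed Fabp1 of 497 CPM against 8989 to 12796, and with the lowest marker sum. With 3 cells in Control replicate 2, the type was below the minimum of 10 cells per mouse, so no genotype test was made.

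**Figure D4:**
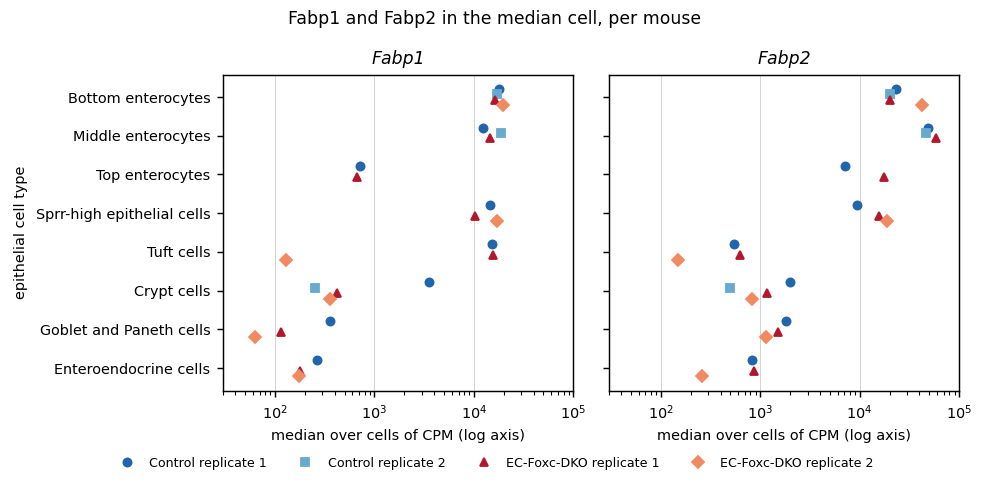
Level of Fabp1 and Fabp2 in the median cell (horizontal axes, CPM on a logarithmic scale) by epithelial cell type, 1 point per mouse. In Tuft cells of both replicates 1 the Fabp1 points, at 15218 and 15432 CPM, lie near those of Bottom enterocytes, and the Fabp2 points, at 548 and 633 CPM, lie far below them.

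Across the 21 cell types, both unnamed clusters among them, the genes whose levels were most like those of each gene were found by Pearson's r of log2(CPM + 1) over 14108 genes. Apoa1 was closest to Apoc3 (r = 0.991), Apoa4 to Apob (r = 0.990), Apob to Apoa4 and Apoc3 to Apoa1, so that the 3 neighbours on chromosome 9 and the unlinked Apob were one another's nearest genes. Npc1l1 was second to Apoa1 (r = 0.976), and the phosphate transporter gene Slc34a2 came after Apoa4 and Apoc3 for Apob (r = 0.974). All the other genes among the 3 nearest to each of these 4 were again among the 4. Fabp1 was closest to Tmem253 (r = 0.963), to Slc51a, a subunit of the basolateral bile acid exporter (r = 0.963), and to Dab1 (r = 0.957), and Fabp2 to Clec2h (r = 0.983), Guca2b (r = 0.980), the gene of the gut peptide uroguanylin, and Rbp2 (r = 0.980), which carries retinol. Mttp was closest to Ces2e (r = 0.980), Clca4b (r = 0.979) and Mep1b (r = 0.977), and Mogat2 to Sowaha (r = 0.976), Sult2b1 (r = 0.966) and Ces2c (r = 0.963). Cd36 was closest to Sgk1 (r = 0.827), Wasf2 (r = 0.815) and Fez2 (r = 0.809), and Scarb1 to Nrp1 (r = 0.888), a coreceptor of vascular endothelial growth factor, Nuak1 (r = 0.875) and Mex3d (r = 0.867). Between Cd36 and Fabp1 r was -0.0678, and between Scarb1 and Fabp1 it was -0.392. The points are types of the same 4 libraries, they are not independent, and the values are a description.

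The genotypes were compared per cell type on UMIs summed per mouse, 2 mice against 2, again by edgeR's quasi-likelihood test with Benjamini-Hochberg adjustment over all genes. An exact permutation test of 2 against 2 could not give a two-sided p below 0.333 and was not used. Groups that do not overlap are the case that gives this 0.333, so non-overlap is given below as a description only. The share of all genes without overlap was not counted. In enterocytes 0 of the 9 genes tested were called, and 0% of all 10259 genes were (154 at an unadjusted p under 0.05, and 2 called by DESeq2). Fabp2 had 34210 and 28046 CPM in Controls against 40291 and 42043 CPM after the deletion, so that the groups did not overlap. However, its log2 difference of 0.46 (SE 0.272) had an adjusted p of 1 (edgeR's quasi-likelihood test). Its unadjusted 95% interval, -0.08 to 0.99, is a normal approximation and narrower than the test itself would give, as are the intervals below. Fabp1 had 15672 and 16564 against 15529 and 19246 CPM (log2 difference 0.17, SE 0.271). Apoa4 had 17431 and 6945 against 18606 and 7801 CPM (0.15, SE 0.522), with the higher value of each group in the replicate 1, whose enterocytes reached further up the villus. Apoa1 (0.17), Apob (-0.16), Apoc3 (-0.14), Mttp (0.39), Cd36 (-0.30) and Mogat2 (0.11) had overlapping groups too. The median of the 9 genes was 0.15 and that of all genes 0.001. Without EC-Foxc-DKO replicate 1, which left 1 mouse in that group, Cd36 had a log2 difference of -2.58, so that its size depends on that library.

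Bottom enterocytes were the only zone with at least 10 cells in every mouse. There 0 of 9 genes were called, against 0% of 9774 genes (278 at an unadjusted p under 0.05, and 7 called by DESeq2). Apoa4 had 4875 and 2088 against 3745 and 7300 CPM (log2 difference 0.71, SE 0.458, unadjusted 95% interval -0.19 to 1.61). Fabp2 had 24662 and 20680 against 24735 and 41477 CPM (0.59, SE 0.328, interval -0.05 to 1.23), and here as well the groups did not overlap. The highest value of both genes was in EC-Foxc-DKO replicate 2. Its partner EC-Foxc-DKO replicate 1 lay within the Control values for Apoa4 and barely above the higher Control for Fabp2. Within Bottom enterocytes the mice were not matched for place on the villus score, and the part of place in these values was not tested. Apoa1 (0.49), Mttp (0.36), Apob (0.34), Apoc3 (0.21), Fabp1 (0.01), Mogat2 (0.01) and Cd36 (-0.58) overlapped. In Crypt cells 0 of 8 genes were called, against 0% of 9311 genes (215 at an unadjusted p under 0.05, and 4 called by DESeq2), with SE between 0.619 and 1.08 over the 8 genes. The log2 differences there were -1.46 in Apoc3, -0.82 in Fabp2, -0.53 in Apoa1, -0.47 in Apoa4, -0.415 in Apob, -0.076 in Mogat2, 0.001 in Fabp1 and 0.21 in Mttp.

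In BECs 0 of 8 genes were called, against 0% of 3512 genes (96 at an unadjusted p under 0.05, and 1 called by DESeq2). For Cd36 the log2 difference was -0.16 (SE 0.231), with an interval of -0.61 to 0.29 before adjustment, and for Scarb1 it was 0.15 (SE 0.379), with an interval of -0.59 to 0.90. The groups overlapped for both. The other 6 genes, at the low levels given above, had -0.81 (Apoa1), -0.61 (Fabp2), -0.090 (Apoa4), -0.073 (Apob), 0.053 (Apoc3) and 0.088 (Fabp1), with SE between 0.665 and 0.791. None of the 6 vascular lipid genes of the wider list that could be tested in BECs was called, Fabp4 at 0.11 (SE 0.224) and Gpihbp1 at -0.22 (SE 0.533), and none of the 40 genes of the list tested in enterocytes was.

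**Figure D5:**
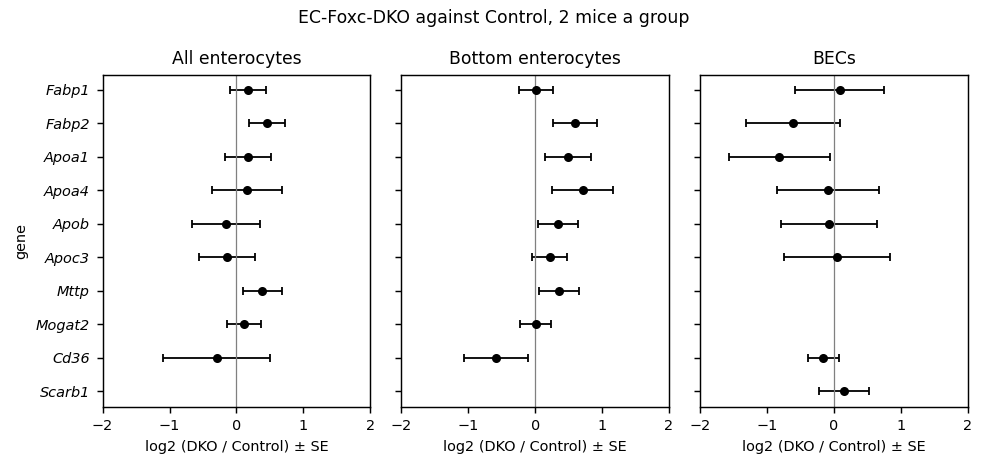
Log2 difference between EC-Foxc-DKO and Control (horizontal axes) with its standard error for the genes tested (vertical axis) in all enterocytes, Bottom enterocytes and BECs, 2 mice a group. No gene was called; Fabp2 lies at 0.46 and 0.59 in the 2 enterocyte panels, and Cd36 in BECs has the smallest error of its panel, 0.231.

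Among the other types with at least 10 cells in every mouse, 0 genes were called in Macrophages (of 6850), CD8+ T cells (of 4809), Follicular B cells (of 3418), Enteric glia (of 1644) and the Erythroid cells mixed with Plasma cells (of 1324), 0% in each, and between 38 and 151 genes had an unadjusted p under 0.05. In Macrophages the groups did not overlap for Cd36, at 106 and 245 CPM in Controls against 59.6 and 90.1 CPM (log2 difference -1.25, SE 0.474, adjusted p = 1.00 by edgeR's quasi-likelihood test). Without Control replicate 1, which left Control replicate 2 alone in that group, it was -1.74. Scarb1 did not overlap in Macrophages either, at 29.2 and 14.6 against 13.4 and 12.9 CPM (-0.85, SE 0.52). Mttp did not overlap there in the other direction, at 12.3 and 5.84 against 17.6 and 16.1 CPM (0.72, SE 0.583), on 11, 2, 21 and 10 UMIs. The share of all genes without overlap in Macrophages was not counted, so non-overlap is not read as a result about these genes. The other genes tested in Macrophages overlapped, with log2 differences of -0.098 (Fabp1), 0.41 (Fabp2), 0.55 (Apoa1), 0.60 (Apoa4), 0.125 (Apob) and 0.23 (Apoc3). In CD8+ T cells the values were 0.36 for Fabp1, 0.31 for Fabp2, -0.49 for Apoa1, 0.025 for Apoa4, -0.385 for Apob and -0.096 for Apoc3. In Follicular B cells the same genes had 0.16, 0.16, -0.68, -0.46, -0.74 and -0.64, and in the Erythroid cells mixed with Plasma cells -0.675, 0.73, 0.57, -0.17, 0.23 and 0.15. In Enteric glia Fabp1 had a log2 difference of 3.08 (SE 1.16, adjusted p = 1.00 by edgeR's quasi-likelihood test), with 289 and 40.1 against 2468 and 138 CPM, of which the 2468 CPM of EC-Foxc-DKO replicate 1 alone exceeded the Control values. The other genes tested there had 2.49 (Fabp2), 1.825 (Apoa1), 1.94 (Apoa4), 1.42 (Apob) and 2.665 (Apoc3). The 10 genes together took 1.56% of the UMIs of its glia, against 0.0642% to 0.320% in the other mice, and the median glial cell of that mouse held 0.221%, so a few cells carried most of them.

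Whether the genotype difference varied along the villus could not be fitted on the segments set over all enterocytes, which left 1 mouse a group. With segments set within each mouse, 0 of 9154 genes were called (0%; 83 at an unadjusted p under 0.05, and 0 by DESeq2, with 51 at an unadjusted p under 0.05). Values of the 9 genes were -0.345 for Apob, -0.25 for Apoa4, 0.080 for Apoa1, 0.40 for Apoc3, 0.66 for Mttp, 0.72 for Cd36, 0.72 for Mogat2 and 1.17 for Fabp2 (SE 0.609 to 1.23), and for Fabp1, at 0.86, the unadjusted 95% interval ran from -1.55 to 3.27.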

How the data were processed

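The authors made the deposited values, UMI counts per gene and barcode that are whole numbers and not normalized, from 10x Genomics 3′ libraries (Cell Ranger 4.0.0 and mm10 per the submitters' processing notes; the study's methods name another version). The 4 matrices hold 32286 features. A table that joins the libraries, with 18407 genes, served only to set the genes over which the mitochondrial share was taken. Its counts were not used.

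Cells with over 10% of UMIs on 13 mitochondrial genes were removed. The rest were clustered (scanpy 1.11.5, 15 principal components, 15 neighbors, Leiden resolution 0.5, seed 0) on 2906 variable genes, without the 10 genes and the 48-gene list. Markers named 19 of the 21 clusters, and 299 cells stayed unnamed. Scrublet marked 0.232% of cells and was therefore not used. Doublets were kept, and 292 cells with the highest scores were removed as an alternative.

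UMIs were summed per mouse and type and tested with edgeR 4.0.16 (R 4.3.3; quasi-likelihood F test, TMM, filterByExpr, Benjamini-Hochberg, threshold 0.05), where each mouse had at least 10 cells. DESeq2 1.42.0 was an alternative. The standard error is the log2 fold change divided by the square root of F. The code was tested on simulated data. The villus score used 8 tip and 9 bottom genes. With 2 mice a group, from 1 sample each, p-values of the genotype tests measure the spread between these mice. In the fits of tip against bottom the mouse is a block, so their p-values measure the spread of that difference over the mice. In all fits edgeR shares information on the spread across genes, which weighs most where few residual degrees of freedom remain. Intervals of shares and floors of 3 counts cover counting error only. The 10 genes, the list, the markers and the tests were chosen with earlier results of these data known. Every one of the 10 genes is named in each comparison where it was tested, list genes where called (2 are not reported here), with Fabp4 and Gpihbp1 as examples, and the 3 genes most like each by Pearson's r.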

Additional observations from a re-analysis of the deposited data

Results flagged for a closer look

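At a mitochondrial limit of 20%, with segments set over all enterocytes, the difference of Fabp1 between tip and bottom differed between genotypes by 1.54 on the log2 scale (edgeR's quasi-likelihood test, adjusted p = 0.000627), a setting chosen after the data were seen. Fabp1 went from 19185 CPM at the bottom to 1398 at the tip in Control replicate 1, from 16926 to 686 in Control replicate 2, from 19047 to 1199 in EC-Foxc-DKO replicate 1 and from 18640 to 7455 in EC-Foxc-DKO replicate 2. It was lower at the tip in 4 of 4 mice, and the bottom values lay close together. The tip value of EC-Foxc-DKO replicate 1 lay between those of the Control mice, so that the difference rests on EC-Foxc-DKO replicate 2, whose tip segment held 19 cells, against 785, 31 and 530 in the other mice. At the limit of 10%, with segments set within each mouse, the same difference was 0.86 (SE 1.23, edgeR adjusted p = 1).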

How the results depend on the processing

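The 7 genes called as higher at the tip over all enterocytes also had a log2 difference above 0 in the fit within each mouse, in which Fabp2 and Mttp were no longer called, and the number of all genes called was 3402 in place of 6778, and between 798 and 5132 without 1 mouse; over all enterocytes no mouse could be left out, as 1 would remain. At a mitochondrial limit of 20%, Fabp2 was -1.23 and Mttp -0.22. For the genotype, counts of called genes were 0 at first; DESeq2, no filter on low genes and the omission of 1 mouse in turn gave 2, 74 and 0 to 95 in enterocytes, 1, 63 and 26 to 43 in BECs, 7, 159 and 0 to 147 in Bottom enterocytes and 4, 101 and 7 to 105 in Crypt cells. Without 1 mouse, the counts were 11 to 68 in CD8+ T cells, 0 to 48 in Enteric glia, 0 to 78 in the Erythroid cells mixed with Plasma cells, 0 to 17 in Follicular B cells and 9 to 435 in Macrophages, and the lone mouse left in a group was taken to have the spread of the other group. Of the 10 genes, without Control replicate 1, 6 of 8 were called in Crypt cells (all genes 105 of 10163), 5 of 7 in Enteric glia (48 of 2537), 4 of 8 in Macrophages (435 of 7151) and 3 of 6 in CD8+ T cells (12 of 5587). Without EC-Foxc-DKO replicate 1, 6 of 6 were called in the Erythroid cells mixed with Plasma cells (71 of 1717), 3 of 6 in Follicular B cells (17 of 1791), 3 of 7 in CD8+ T cells (68 of 5495) and 1 of 9 in enterocytes (95 of 10480). Without Control replicate 2, 3 of 9 were called in Crypt cells (60 of 9992) and 1 of 8 in BECs (43 of 3609), and without EC-Foxc-DKO replicate 2, 5 of 7 in Enteric glia (39 of 2413) and 1 of 7 in the Erythroid cells mixed with Plasma cells (78 of 1666). In Crypt cells the 6 were higher and the 3 lower after the deletion, and in CD8+ T cells the 3 without Control replicate 1 were higher and the 3 without EC-Foxc-DKO replicate 1 lower. Genotype by position called 9 genes at a limit of 20% and 0 to 51 without 1 mouse. With all 4 mice and no filter on low genes, 1 of the 10 genes was called in Crypt cells, against 101 of 15481 genes. This was Apoc3, lower after the deletion at -1.42 (edgeR adjusted p = 0.00627). The causes were not tested.

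Single differences between genotypes changed sign with 1 mouse left out, none of them called in the first place. In enterocytes the log2 differences ranged from -0.019 to 0.34 for Fabp1, -0.18 to 0.65 for Apoa1, -0.57 to 0.99 for Apoa4, -0.88 to 0.62 for Apob, -0.78 to 0.31 for Apoc3, -2.58 to 0.52 for Cd36 and -0.021 to 0.27 for Mogat2. In Bottom enterocytes they ranged from -0.16 to 0.22 for Fabp1, -0.001 to 0.85 for Apoa1, -0.035 to 0.65 for Apob, -0.028 to 0.42 for Apoc3, -0.043 to 0.66 for Mttp and -0.20 to 0.27 for Mogat2. Scarb1 in BECs had -0.22 to 0.49, and in Crypt cells Apoc3 had -2.20 to 0.44 and Mttp -0.55 to 2.28. The change of the genotype difference along the villus had -0.51 to 2.29 for Fabp1 and -1.28 to 0.65 for Apob. Cd36 in BECs was 0.10 at a mitochondrial limit of 20%. In Bottom enterocytes Fabp1 was -0.020 without TMM and -0.003 with the lipid genes kept in the clustering, Mogat2 was -0.024 and -0.002 in these settings, -0.002 at the limit of 20% and 0.000 without the likely doublets, and Apoc3 was -0.002 at the limit of 20%. Mttp in enterocytes, Fabp2 in enterocytes and Bottom enterocytes, and Apoa4 and Cd36 in Bottom enterocytes kept their direction with any 1 mouse left out. Cd36 did so in BECs and Macrophages. Where the groups did not overlap, as for Fabp2, leaving out 1 mouse could hardly reverse the direction. The kept direction is therefore no further support for a difference.

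The 2 replicate numbers are shared between the groups in the labels, but nothing says that they pair the mice. With the replicate number as a block, 9 genes were called in enterocytes, 2 in BECs, 4 in Bottom enterocytes and 0 in Crypt cells, none of them among the 10 genes.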

Other observations

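An unnamed cluster of shallow cells, with medians of 827, 2613, 1209 and 5003 UMIs per cell in the 4 mice against 23095 to 27431 in enterocytes, had levels near those of Middle enterocytes for Fabp2 (48046, 48145, 50379 and 36408 CPM) and Fabp1 (15108, 16873, 17104 and 8999 CPM). It held 82, 12, 46 and 6 cells and entered the order of levels and the correlations over 21 types, and no test.

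In barcodes above the mitochondrial limit, the 10 genes took 8.47%, 3.08%, 8.99% and 5.18% of UMIs in the 4 mice, against 8.81%, 2.64%, 5.80% and 5.86% in the kept cells.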
